A study of Homo sapiens with 18 samples.

Results

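TRAFD1 siRNA (KD) was compared with scrambled siRNA (SCR) in THP-1 cells that had received lipopolysaccharide (LPS), over all 16678 of 63677 listed genes that passed a low-count filter. The comparison rests on 6 of the 18 libraries of the series, KD replicates 4, 5 and 6 and SCR replicates 4, 5 and 6, chosen by their labels. THP-1 is a human line from an acute monocytic leukaemia. All 6 libraries came from cells transfected with an siRNA at 25 nM by a lipid reagent and given LPS from E. coli at 10 ng/ml, a bacterial cell wall component, for 4 h at 72 h after transfection. The same siRNA pair without LPS (6 libraries) and cells without siRNA (WT) served to place the values. They also entered the low-count filter, the scaling and the estimate of spread, which were shared over all 18 libraries. The labels call WT both untreated and mock-transfected, so a difference from WT cannot be assigned to the siRNA or the reagent. The knockdown came from 1 siRNA in 1 cell line, and nothing in the labels says that the 3 replicates were separate cultures. p-values therefore measure the spread between libraries of a group, pooled over all 18, which may be technical.

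TRAFD1 encodes a TRAF-type zinc finger protein that is known as a brake on innate immune signalling. LPS is sensed by Toll-like receptor 4 with CD14 and LY96 (MD-2). The receptor signals through the adaptors MYD88 and TICAM1 to the transcription factor NF-kB and to interferon regulatory factors. These switch on inflammatory cytokines, feedback inhibitors such as NFKBIA, and interferon, which in turn induces its own set of target genes.

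The target of the TRAFD1 siRNA, which sets the KD arm apart, is shown with the guide strand that would pair with it. Both are written 5′ to 3′ in DNA letters, and capitals mark the guide's seed, bases 2 to 8, and the bases of the target that pair with it.
TRAFD1 target: cccagccgacccaTTAACAAt
guide, as the reverse complement: aTTGTTAAtgggtcggctggg
The 21 bases matched annotated transcripts of 1 gene, TRAFD1, and no other. The match lies at chr12:112589676-112589696 (GRCh37, plus strand), in the coding part of exon 10 of 12. It lies 1190 bases from the end of the longer matched transcript, whereas the authors' gene models kept 500 bases per gene for counting.

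The 6 libraries held 8206023 to 17065865 counts, and SCR replicate 4 was the shallowest. A count of 0 allowed a level of up to 0.176 to 0.366 counts scaled to library size (CPM), by counting error only. On the first principal component, which held 36.3% of the variance, SCR replicate 4 lay at -57.2 and the other 5 between -24.9 and 36. Results are therefore also given without that library where its absence moved them. Mitochondrial genes took 3.72% to 5.20% of counts. Pseudogenes took 10.8% to 10.9% in KD and 10.5% to 10.6% in SCR, without overlap.

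The cells carried the markers of THP-1. CTSG, a protease of myeloid granules, stood at 1306 CPM in KD and 1209 CPM in SCR on average, and ELANE and PRTN3 were also abundant. Of 17 monocyte and THP-1 markers 15 could be tested; CEBPA reached at most 2 counts in any library and FCN1 was at 0. Markers of other cell types were low, with exceptions. All 6 erythroid markers failed the low-count filter, with at most 2 counts in any library. Of the T cell markers only CD4, which monocytes also carry, was tested. CD3D, CD3E and CD2 never passed 2 counts. The B cell factor PAX5 was an exception at 47.8 CPM in KD and 42.6 CPM in SCR. Of 6 NK cell markers 4 were tested, and the list summed to 11.9 to 15.9 CPM in KD and 12.2 to 12.9 CPM in SCR. Macrophage differentiation markers summed to 41.5 to 48.5 CPM in KD and 44.4 to 54.3 CPM in SCR, most of it CD209. Epithelial, fibroblast and endothelial markers summed to at most 3.81 CPM per list in any of the 6 libraries.

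TRAFD1 (ENSG00000135148, chromosome 12, 112563342 to 112591408) was measured at 15.8, 14 and 13.8 CPM in KD replicates 4, 5 and 6 with LPS. In SCR it stood at 21.9, 27.5 and 18.7 CPM. Every KD library lay below every SCR library, with means of 14.5 ± 1.12 against 22.7 ± 4.42 CPM (SD, n = 3 each). By the edgeR fit the KD level was 63.9% of the SCR level. The log2 fold change was -0.65 (SE 0.22), with an edgeR adjusted p of 0.262 over all genes and an unadjusted p of 0.0090. The difference thus had no overlap between groups but did not pass the threshold of 0.05. Without LPS the same siRNA gave 8.67 ± 3.14 CPM against 23.7 ± 3.38 CPM in SCR (SD, n = 3 each), a log2 fold change of -1.45 with an adjusted p of 0.0277. The fold with LPS was smaller by 0.80 on the log2 scale (SE 0.32), but this difference between states had an adjusted p of 0.612. WT libraries with LPS stood at 19.2, 20.3 and 11.6 CPM, so that 1 of them lay below the KD range.

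**Figure D1:**
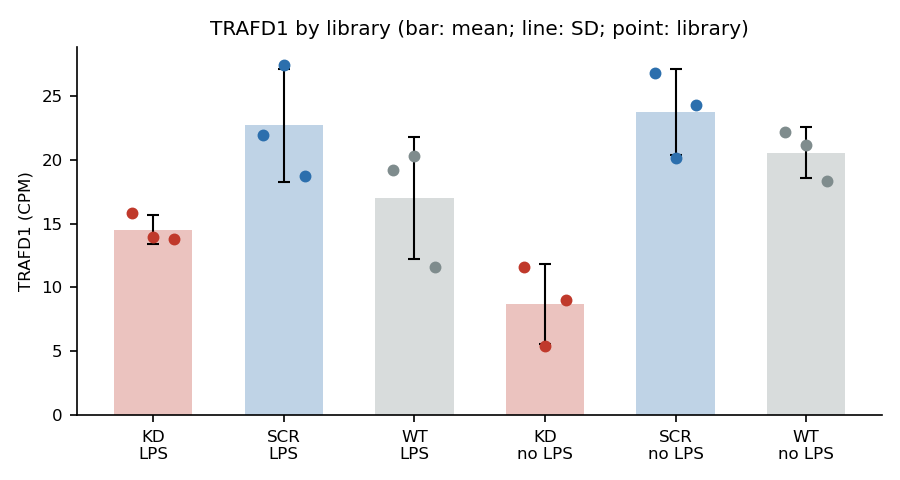
TRAFD1 level in CPM (vertical axis, from 0) in each of the 18 libraries, by siRNA group and stimulation; bars are means, lines SD, points libraries. With LPS the 3 KD libraries sit between 13.8 and 15.8 CPM and the 3 SCR libraries between 18.7 and 27.5 CPM, and the gap is wider without LPS.

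Across the transcriptome, 0 of 16678 genes tested passed an adjusted p of 0.05 by edgeR's quasi-likelihood test (0% called). The smallest adjusted p was 0.060, for RLF. An unadjusted p under 0.05 was reached by 1963 genes (11.8% of those tested), 971 higher (5.82%) and 992 lower (5.95%) in KD. The 1963 became 1442 when SCR replicate 4 was left out and 1140 when SCR replicate 6, whose absence moved the count most, was left out. Other tools gave other counts past the adjusted threshold. DESeq2 called 142 genes on all libraries and 619 on the 6 alone, and limma voom called 10. With the replicate number as a block, edgeR called 85 (0.51%). The KD and SCR libraries did not overlap at 3587 genes (21.5%), of which 1805 were higher (10.8%) and 1782 lower (10.7%). The median log2 fold change over all genes was 0.016.

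**Figure D2:**
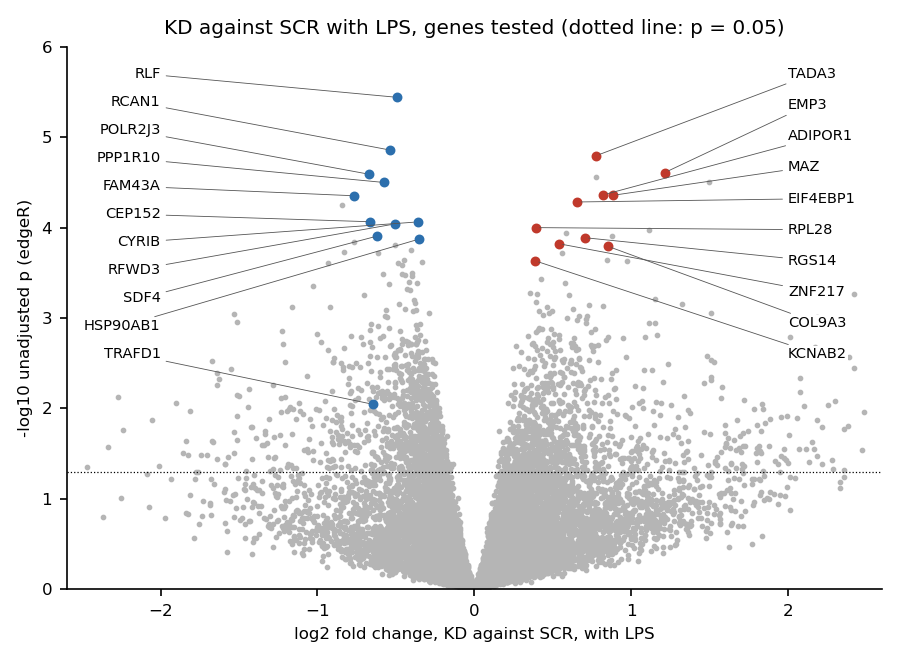
Unadjusted p (vertical axis, -log10) against the log2 fold change of KD over SCR with LPS (horizontal axis) for the genes tested; 35 genes lie outside the horizontal range. Named points are TRAFD1 and the 10 protein-coding genes per direction with the smallest p and no overlap (blue lower, red higher); none passed the adjusted threshold, and TRAFD1 lies below the other named genes.

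Among the genes with lower values in KD, those with the smallest p and no overlap were RLF, RCAN1, POLR2J3, PPP1R10, FAM43A, CEP152, CYRIB, RFWD3, SDF4 and HSP90AB1. RLF, a zinc finger protein (ENSG00000117000, chromosome 1, 40627059 to 40706593), gave 468, 436 and 463 CPM in KD against 611, 620 and 696 CPM in SCR. The 2 groups lay far apart relative to their own spread, and the WT libraries, at 642, 631 and 721 CPM, lay with SCR. Its log2 fold change was -0.49 (SE 0.08). RCAN1, an inhibitor of the phosphatase calcineurin, gave 96.7, 108 and 101 CPM in KD and 140, 164 and 140 CPM in SCR. Its log2 fold change was -0.54 (SE 0.095, adjusted p = 0.066 by edgeR). In WT cells LPS raised RCAN1 by 1.40 on the log2 scale.

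PPP1R10, a nuclear targeting subunit of protein phosphatase 1, stood at 53.4, 57.1 and 57.9 CPM in KD and 92.8, 71.9 and 86.5 CPM in SCR. HSP90AB1, the constitutive cytosolic chaperone HSP90 beta, was the most abundant of the 10. It gave 2684, 2777 and 2745 CPM in KD and 3502, 3270 and 3721 CPM in SCR, a log2 fold change of -0.35 (SE 0.08). Its 6 values were tight enough that a difference of this size separated the groups. POLR2J3, at -0.67, belongs to a family of near-identical RNA polymerase II subunit genes, and reads may be split among them. CEP152, which acts in centriole duplication, differed by -0.66 and RFWD3, a ubiquitin ligase of DNA repair, by -0.51. CYRIB, which binds the GTPase RAC1, differed by -0.36 and SDF4, a calcium-binding protein of the Golgi, by -0.62.

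Among the genes with higher values in KD the list held TADA3, EMP3, ADIPOR1, MAZ, EIF4EBP1, RPL28, RGS14, ZNF217, COL9A3 and KCNAB2. EMP3, a small membrane protein (ENSG00000142227, chromosome 19, 48824766 to 48833810), had the largest fold of these 20 genes. It stood at 52.9, 75.5 and 72.4 CPM in KD and at 29.3, 31.2 and 26.1 CPM in SCR, so its lowest KD library was well above its highest SCR library. The log2 fold change was 1.21 (SE 0.23, adjusted p = 0.066 by edgeR), and 0.75 without LPS. MAZ, a zinc finger transcription factor, gave 89.1, 78.8 and 79.0 CPM in KD and 41.2, 49.3 and 42.9 CPM in SCR, a log2 fold change of 0.88 (SE 0.17). TADA3, an adaptor of histone acetyltransferase complexes, gave 53.4, 48.1 and 55.6 CPM in KD and 30.01, 33.3 and 28.4 CPM in SCR. For TADA3 the WT libraries, at 38.3, 42.8 and 36.3 CPM, lay between the groups.

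EIF4EBP1, which holds back translation by binding the cap-binding protein eIF4E, differed by 0.66 (SE 0.13). ADIPOR1, an adiponectin receptor, differed by 0.82. ZNF217, a transcriptional regulator, differed by 0.54, with the 3 SCR libraries between 47.8 and 48.5 CPM and the KD libraries between 66.2 and 76.6 CPM. RGS14, a regulator of G protein signalling, differed by 0.70 and KCNAB2, a potassium channel subunit, by 0.39. COL9A3, a chain of type IX collagen, was at 7.62 to 9.70 CPM in KD and 4.52 to 4.96 CPM in SCR, but its WT libraries, at 6.81 to 9.02 CPM, overlapped KD. For COL9A3 the SCR libraries were thus the ones that stood apart.

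FAM43A gave 41.8, 38.0 and 41.6 CPM in KD and 68.2, 56.9 and 81.5 CPM in SCR, a log2 fold change of -0.77. The fit with the replicate block also named PLEKHA4, a pleckstrin homology protein, at -0.77 and the splicing factor SRSF2 at 0.62 as reported without the block.

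**Figure D3:**
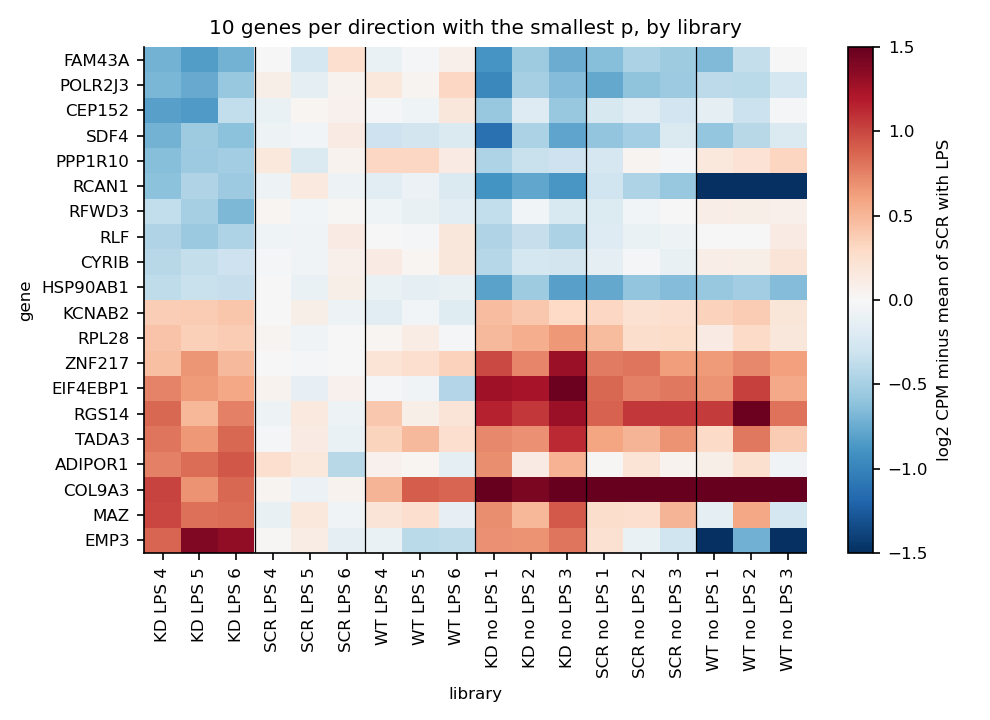
Log2 CPM of the 20 genes, minus the mean of the 3 SCR libraries with LPS (colour, from -1.5 to 1.5), in each of the 18 libraries (columns). In the first 3 columns, KD with LPS, the upper 10 genes are blue and the lower 10 red in every library; TADA3, ZNF217 and COL9A3 are also above every SCR library in WT with LPS.

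Without LPS, in libraries that share no sample with the comparison, 19 of these 20 genes had a difference of the same sign, COL9A3 being the exception, and 11 had an unadjusted p under 0.05. Over all genes the share with the same sign in both states was 57.2%. It was 70.6% of the 1963 genes with an unadjusted p under 0.05 with LPS and 81.9% of the 94 with one under 0.001. Spearman's rho between the 2 sets of fold changes, across genes, which are not independent, was 0.13 over all genes and 0.31 over the 8652 genes with a mean of 10 CPM or more. Each set has its own KD and SCR libraries, but cells, siRNA and gene composition are common to both.

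Without LPS 11 genes passed the threshold (0.066% called) and 2107 (12.6%) had an unadjusted p under 0.05. Of the 11, 10 had the same sign with LPS. POU2F2 (OCT2), a POU domain transcription factor of B cells and macrophages, was among the 11. With LPS it gave 347, 292 and 297 CPM in KD and 427, 391 and 403 CPM in SCR, a log2 fold change of -0.38 (SE 0.10, adjusted p = 0.165 by edgeR). Without LPS its log2 fold change was -0.76. LPS raised POU2F2 in WT by 2.20 on the log2 scale. ITGB2, the beta-2 integrin chain, and ZDHHC7, a palmitoyltransferase, were lower without LPS by -0.54 and -0.51, whereas with LPS their log2 fold changes were -0.13 and -0.04. Both were singled out after their values were seen. The test of the difference between the 2 states called 0 genes by edgeR, with 1274 (7.64%) at an unadjusted p under 0.05, and DESeq2 called 3.

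The genes that answer to LPS were defined by the WT libraries with and without LPS, whose means the comparison of KD with SCR does not use. The filter and the estimate of spread were shared over all 18 libraries, so the 2 calls are not independent. A gene with a small shared spread passes both more easily. In either direction, 21.7% of raised, 13.2% of lowered and 10.8% of uncalled genes had an unadjusted p under 0.05 for KD against SCR. LPS raised 1169 genes and lowered 1211 genes in WT at an adjusted p under 0.05 by edgeR. Of the 1169 raised genes, 213 (18.2%) had an unadjusted p under 0.05 with a lower value in KD and 41 (3.51%) with a higher one, beside 5.95% and 5.82% of all genes tested. The 213 became 153 when SCR replicate 4 was dropped and 137 when SCR replicate 6 was dropped. In all, 65.9% of the raised genes had a negative fold change, and their median was -0.11. Without LPS the median of the same genes was 0.010.

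A narrower class held the 140 genes that LPS raised by more than 2 on the log2 scale in WT. Of these 140 genes, 28 (20%) had an unadjusted p under 0.05 and were lower in KD, and 1 (0.71%) was higher. The shares of all genes were 5.95% and 5.82%. The groups did not overlap at 46 genes that were lower and 4 that were higher, beside 10.7% and 10.8% of all genes. The median log2 fold change was -0.25, and it ran from -0.27 to -0.19 when 1 library was left out, -0.19 being the value without SCR replicate 6. The mean log2 CPM over the 140 genes was 3.28 ± 0.062 in KD and 3.52 ± 0.039 in SCR (SD, n = 3 each), without overlap. Without LPS it was 1.09 ± 0.097 and 1.32 ± 0.041, again without overlap, and the median fold change was -0.19.

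The genes that LPS lowered in WT showed the opposite tilt. Of 1211, 100 (8.26%) had an unadjusted p under 0.05 and were higher in KD and 60 (4.95%) were lower, with a median log2 fold change of 0.040. The 100 became 67 without SCR replicate 4 and 55 without SCR replicate 6. Of the 249 lowered by more than 1 on the log2 scale 27 (10.8%) were higher and 7 (2.81%) lower at that p, with a median of 0.14. Their mean log2 CPM overlapped between the groups, at 2.41 to 2.53 in KD and 2.27 to 2.47 in SCR. Without SCR replicate 6 the 27 became 16, and the 7 became 2 without KD replicate 4 or SCR replicate 6 and 3 without SCR replicate 5. The 14298 genes without a call for LPS in WT had a median of 0.024. Spearman's rho between the KD fold change and the LPS response of WT, across 16678 genes, was -0.20.

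**Figure D4:**
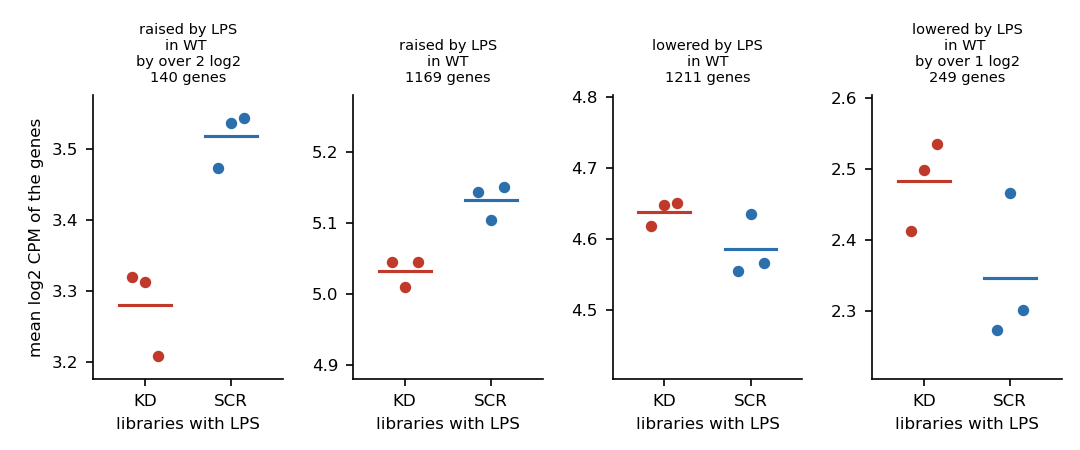
Mean log2 CPM (vertical axes, each spanning 0.4) over genes that LPS raised or lowered in the WT libraries, in each KD and SCR library with LPS; points are libraries and lines group means. For both raised classes the 3 KD libraries lie below the 3 SCR libraries, at 3.28 against 3.52 on average for the 140 genes raised most, whereas the 249 genes lowered most overlap.

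NF-kB targets were examined as one list of 40 genes, of which 34 were tested. CCL3, CCL4 and SOD2 were not analysed because their names matched no gene ID, and IL6 and IL12B did not pass the low-count filter. CCL5 was at 0 in every library under the one ID its name matched, so it was not assessed. At an unadjusted p under 0.05, 7 (20.6%) were lower and 1 (2.94%) was higher in KD, beside 5.95% and 5.82% of all genes. Beside the 51.9% of all genes with a positive fold change, 7 of the 34 were positive and 27 negative, and the list median was -0.19. REL, an NF-kB subunit, gave 22.2, 19.6 and 25.1 CPM in KD and 31.5, 30.9 and 39.0 CPM in SCR, a log2 fold change of -0.60 (SE 0.17, adjusted p = 0.201 by edgeR). NFKBIA, the inhibitor that NF-kB induces against itself, gave 1145, 1110 and 1119 CPM in KD and 1301, 1438 and 1408 CPM in SCR. Its groups did not overlap, and the log2 fold change was -0.30 (SE 0.09). CD40, a costimulatory receptor, gave 119, 116 and 97.2 CPM in KD and 139, 158 and 137 CPM in SCR, a log2 fold change of -0.38.

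Outside the rule for named genes, and singled out after their values were seen, were the cytokines TNF and IL23A, the stress gene IER3, TNIP1 and NFKB2. TNF gave 117, 103 and 123 CPM in KD and 129, 145 and 157 CPM in SCR, a log2 fold change of -0.33 (SE 0.14, unadjusted p = 0.0300 by edgeR). IL23A differed by -0.60, IER3 by -0.54 and TNIP1, whose groups overlapped, by -0.19. NFKB2, the second NF-kB precursor gene, was the 1 member that was higher in KD without overlap, at 40.4 to 43.2 CPM in KD and 32.1 to 34.6 CPM in SCR. IL1B and CXCL8 overlapped between groups, with log2 fold changes of -0.19 and 0.06. Without KD replicate 5 or SCR replicate 5 the 7 became 4, and without both replicates numbered 4, an alternative chosen after seeing the data, they became 12. The mean log2 CPM of the list overlapped, at 5.17 to 5.41 in KD and 5.33 to 5.61 in SCR. Without LPS the list median was -0.22.

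Upstream of these targets, the Toll-like receptor signalling list was mixed, with 2 members higher, 3 lower at an unadjusted p under 0.05 out of 38 tested and a median of -0.030. TANK, which binds TRAF proteins and the kinase TBK1, gave 21.8, 29.3 and 22.3 CPM in KD and 12.6, 17.8 and 10.6 CPM in SCR, a log2 fold change of 0.84 (SE 0.23). TOLLIP, an inhibitor of IRAK1, differed by 0.32, with KD at 115 to 126 CPM and SCR at 88.1 to 102 CPM. LY96, the co-receptor for LPS, was near the detection limit at 0.24 to 1.6 CPM in KD and 2.57 to 3.03 CPM in SCR. TLR4 and CD14 overlapped between the groups, with log2 fold changes of 0.35 and 0.04. Without SCR replicate 5 the count was 5 higher and 1 lower, and without SCR replicate 6 the 3 lower became 1.

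The trans-mediated genes are 41 genes whose blood levels the study linked to TRAFD1 by genetics, in a separate cohort. They were not selected on these libraries. Of 35 tested, 4 (11.4%) had an unadjusted p under 0.05, close to the 11.8% of all genes tested, and all 4 were lower in KD. The members were negative at 23 and positive at 12, with a median log2 fold change of -0.085 with LPS and 0.00017 without. PSTPIP2, an adaptor of the actin cytoskeleton, gave 84.1, 73.9 and 73.3 CPM in KD and 103, 97.7 and 99.5 CPM in SCR, a log2 fold change of -0.37 (SE 0.11, adjusted p = 0.211 by edgeR). BATF2, a basic leucine zipper factor induced by interferon, gave 49.0, 44.7 and 49.2 CPM in KD and 65.7, 54.8 and 65.3 CPM in SCR, a log2 fold change of -0.38. GBP1P1, a pseudogene that may share reads with GBP1, differed by -0.67. GBP1, a guanylate-binding protein of the interferon-gamma response and outside the naming rule, differed by -0.55. Without SCR replicate 4 the count was 2 lower and 2 higher. The groups did not overlap at 2 members that were higher and 8 that were lower. Together these were 28.6% of the members tested, beside 21.5% of all genes.

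Interferon-gamma and MHC class I genes had 6 lower (16.7%, beside 5.95% of all genes) and 1 higher of 36 tested at an unadjusted p under 0.05 and a median of -0.088. IRF1, the transcription factor at the head of this programme, gave 98.7, 97.4 and 95.8 CPM in KD and 124, 114 and 130 CPM in SCR, a log2 fold change of -0.34 (SE 0.10, adjusted p = 0.217 by edgeR). CXCL11, a chemokine that LPS raised in WT by 4.32 on the log2 scale, gave 17.0, 18.1 and 15.5 CPM in KD and 25.2, 23.6 and 24.0 CPM in SCR. TAP2, which carries peptides to MHC class I, differed by -0.26. CXCL10 was at 172 to 245 CPM in KD and 253 to 295 CPM in SCR, a log2 fold change of -0.39 (SE 0.20). It was named after its values were seen, and its unadjusted p was 0.0675 by edgeR. Without SCR replicate 4 the 6 became 3.

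The type I interferon list held 40 tested genes, of which 27 had a negative fold change. At an unadjusted p under 0.05, 5 (12.5%) were higher and 2 (5%) lower, beside 5.82% and 5.95% of all genes. IFI35, an interferon-induced protein, gave 191, 150 and 144 CPM in KD and 113, 106 and 106 CPM in SCR, a log2 fold change of 0.58 (SE 0.14, adjusted p = 0.137 by edgeR). IFIT2, an antiviral effector, differed by 0.34 with overlapping groups, and CMPK2, a nucleotide kinase of the interferon response, by -0.25 without overlap. The list median was -0.062. Without KD replicate 5 or SCR replicate 6 the 5 became 1, and without KD replicate 4 or SCR replicate 5 they became 3.

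MHC class II genes numbered 13 tested, of which 2 (15.4%) were higher and 0 lower at that p, beside 5.82% and 5.95% of all genes. RFX5, a factor that binds class II promoters, differed by 0.82 and CD74, the invariant chain, by 0.23. Among 18 nucleic acid sensors 1 (5.56%) was higher and 3 (16.7%) were lower. AIM2, a sensor of cytosolic DNA, was low and differed by -1.22 (SE 0.35), at 1.68 to 2.53 CPM in KD and 3.96 to 5.88 CPM in SCR. STING1, the adaptor of the cytosolic DNA pathway, differed by 0.34 in the other direction. Without KD replicate 5 or 6 or SCR replicate 6 the 3 lower sensors became 1, and without SCR replicate 6 the class II count turned to 0 higher and 2 lower.

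Of the 15 tested markers of the monocytic and granule programme, 6 (40.0%) were higher in KD at an unadjusted p under 0.05 and 0 were lower, beside 5.82% and 5.95% of all genes. In all 13 of the 15 fold changes were positive, and the median was 0.31. SPI1 (PU.1), the master transcription factor of the myeloid lineage, gave 115, 86.8 and 93.2 CPM in KD and 63.0, 69.2 and 59.6 CPM in SCR, a log2 fold change of 0.62 (SE 0.17, adjusted p = 0.201 by edgeR). The granule proteases PRTN3, AZU1 and ELANE, with CD68 and LYZ, make up the rest of the 6 and were named after their values were seen. PRTN3 gave 197, 188 and 241 CPM in KD and 149, 102 and 122 CPM in SCR. Its log2 fold change was 0.75 with LPS and 0.91 without. AZU1 differed by 0.77 with LPS and 0.89 without, and ELANE by 0.35 and 0.36. CD68, a lysosomal protein of macrophages, differed by 0.64 and LYZ, lysozyme, by 0.41. Without KD replicate 6 the 6 became 4 and the median 0.20. The summed level of the 17 markers was 2396 to 2666 CPM in KD and 2083 to 2323 CPM in SCR. In bulk libraries a change in the number of cells of a type and a change in RNA per cell cannot be told apart.

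At an unadjusted p under 0.05, 5.82% of all genes were higher and 5.95% lower. The wider list of myeloid transcription factors and surface genes had 6 (15.4%) higher and 3 (7.69%) lower of 39 tested. Besides POU2F2 and SPI1 it named IKZF1 (Ikaros), a lymphoid and myeloid zinc finger factor, at 88.3 to 100 CPM in KD and 110 to 126 CPM in SCR, a log2 fold change of -0.32.

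Immediate-early genes and feedback regulators of MAP kinases had 7 (22.6%) higher and 3 (9.68%) lower of 31 tested at an unadjusted p under 0.05. The shares of all genes were 5.82% and 5.95%, and the list median was 0.11. JUND, a subunit of the AP-1 factor, stood at 185, 193 and 232 CPM in KD, while all 3 SCR libraries were at 144 CPM. Its log2 fold change was 0.50 (SE 0.16). DUSP6, the phosphatase that switches off ERK, gave 81.9, 81.4 and 79.0 CPM in KD and 104, 119 and 97.6 CPM in SCR, a log2 fold change of -0.40. WT libraries stood at 60.3 to 77.7 CPM for DUSP6, below both groups. IER2, an immediate-early gene, differed by -0.40. Without KD replicate 5 the 7 became 2, and without SCR replicate 4 or 6 they became 3. Without both replicates numbered 4 there were 3 higher and 6 lower.

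Of 40 mitosis and G2/M genes, 7 (17.5%) were lower and 0 higher in KD at an unadjusted p under 0.05, beside 5.95% and 5.82% of all genes, with a median of -0.11. MKI67, the proliferation antigen, gave 131, 137 and 142 CPM in KD and 169, 175 and 180 CPM in SCR, a log2 fold change of -0.36 (SE 0.10, adjusted p = 0.205 by edgeR). TOP2A, topoisomerase II alpha, gave 481, 498 and 539 CPM in KD and 682, 601 and 668 CPM in SCR. TACC3, which stabilises the spindle, gave 118, 117 and 123 CPM in KD and 166, 142 and 154 CPM in SCR. For all 3 genes the groups did not overlap, and for MKI67 the WT libraries, at 140 to 153 CPM, lay mostly between them. The mean log2 CPM of the list overlapped, at 5.29 to 5.33 in KD and 5.32 to 5.44 in SCR. WT with LPS lay below both groups, at 5.08 to 5.27. The list's median without LPS was -0.036, and there MKI67 and TOP2A differed by -0.07 and -0.02. Leaving out 1 library left 5 to 8 lower genes, and without both replicates numbered 4 there were 6 lower and 2 higher. Of 39 DNA replication genes 2 (5.13%) were lower and 0 higher, no more than the 5.95% of all genes, and 29 of the 39 fold changes were negative. RRM1, a subunit of ribonucleotide reductase, differed by -0.30 and the helicase subunit MCM7 by -0.23.

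Of 78 ribosomal protein genes tested, 13 (16.7%) were higher and 1 (1.28%) was lower in KD at an unadjusted p under 0.05, beside 5.82% and 5.95% of all genes. The groups did not overlap at 26 that were higher and 4 that were lower, beside 10.8% and 10.7% of all genes. The list median was 0.086 with LPS and 0.12 without. The summed level of the list overlapped, at 108820 to 116373 CPM in KD and 107158 to 111927 CPM in SCR. Its mean log2 CPM did not, at 10.07 to 10.16 in KD and 10.01 to 10.04 in SCR. RPL28 gave 362, 346 and 351 CPM in KD and 277, 260 and 270 CPM in SCR, a log2 fold change of 0.39 (SE 0.08, adjusted p = 0.0925 by edgeR). RPS27 gave 1029, 988 and 1045 CPM in KD and 843, 808 and 739 CPM in SCR. RPS25 gave 1097, 1105 and 1061 CPM in KD and 797, 934 and 756 CPM in SCR. Pseudogenes of ribosomal protein genes are near-identical copies to which the counting could have split reads. They had 52 (11.4%) higher and 23 (5.04%) lower of 456 tested, with a median of 0.11. Without SCR replicate 6 the 52 became 34. The share of counts in pseudogenes was also higher in every KD library, as given above, and its part in these differences was not tested. Without KD replicate 4 the 13 became 8, and without both replicates numbered 4 there were 11 higher and 7 lower. Genes of ribosome assembly had 0 higher and 4 (10%) lower of 40 tested. UBTF, a factor of RNA polymerase I, differed by -0.47, TSR1 by -0.44 and NOP56, a core protein of small nucleolar particles, by -0.27. Without KD replicate 5, SCR replicate 4 or SCR replicate 6 the 4 became 2.

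At an unadjusted p under 0.05, nuclear genes of oxidative phosphorylation had 11 (19.0%) higher and 2 (3.45%) lower of 58 tested. The shares of all genes were 5.82% and 5.95%, and the list median was 0.065. COX7A2, a subunit of cytochrome c oxidase, gave 677, 660 and 599 CPM in KD and 457, 558 and 422 CPM in SCR, a log2 fold change of 0.43 (SE 0.12). ATP5F1A, the alpha subunit of ATP synthase, differed by 0.52 and UQCRC2, a core subunit of complex III, by -0.22. Without KD replicate 4 or SCR replicate 6 the 11 became 3, and without KD replicate 5 or SCR replicate 4 they became 6. Without both replicates numbered 4 there were 8 higher and 4 lower. The 37 tested genes of the mitochondrial chromosome, of any type and not only of the respiratory chain, had 5 (13.5%) higher and 1 (2.70%) lower. The groups did not overlap at 7 that were higher and 1 that was lower, together 21.6%, beside 21.5% of all genes.

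In glycolysis and the hypoxia response 3 (9.4%) were higher and 2 (6.25%) lower of 32 tested. The shares of all genes were 5.82% and 5.95%. LDHA, lactate dehydrogenase A, gave 303, 297 and 344 CPM in KD and 200, 271 and 205 CPM in SCR, a log2 fold change of 0.48 (SE 0.14). MXI1, an antagonist of MYC, differed by 0.50, and SLC2A3, the glucose transporter GLUT3, by -0.41. Without SCR replicate 5 the count was 5 higher and 0 lower, and the 2 lower became 1 without KD replicate 5 or 6 or SCR replicate 4 or 6.

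The remaining lists gave few genes at an unadjusted p under 0.05, which 5.82% of all genes reached as higher and 5.95% as lower. Leaving out 1 library moved such small counts by over 1.5 times. The 3 higher genes of cholesterol synthesis, for example, became 0 without KD replicate 5, SCR replicate 4 or SCR replicate 6. ER chaperones and the unfolded protein response had 3 (12%) higher and 1 (4%) lower of 25. HSPA5 (BiP), the main chaperone of the ER, gave 1901, 1789 and 1945 CPM in KD and 2204, 2331 and 2543 CPM in SCR, a log2 fold change of -0.33 (SE 0.10). ERN1 (IRE1), a sensor of unfolded proteins, differed by 1.08, but its SCR libraries ranged from 6.30 to 16.7 CPM. EDEM1, which targets misfolded proteins for degradation, differed by 0.53 with overlapping groups. The integrated stress response had 2 (5.56%) higher and 1 (2.78%) lower of 36, no more than the shares of all genes. XPOT, the exporter of transfer RNA, differed by 0.36, SESN2, a sensor of leucine, by -0.32 and CBS, cystathionine beta-synthase, by 0.19. Cholesterol and fatty acid synthesis had 3 (9.68%) higher and 1 (3.23%) lower of 31. FDFT1 (squalene synthase) stood at 0.21, INSIG2 at 0.70 and FADS1, a desaturase, at -0.23. Lysosomal genes had 3 (7.69%) higher and 3 (7.69%) lower of 39, near the shares of all genes. Among them were ATP6V0D1, a subunit of the proton pump, at 0.43, the protease CTSB at -0.28 and the cholesterol carrier NPC2 at 0.20.

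**Figure D5:**
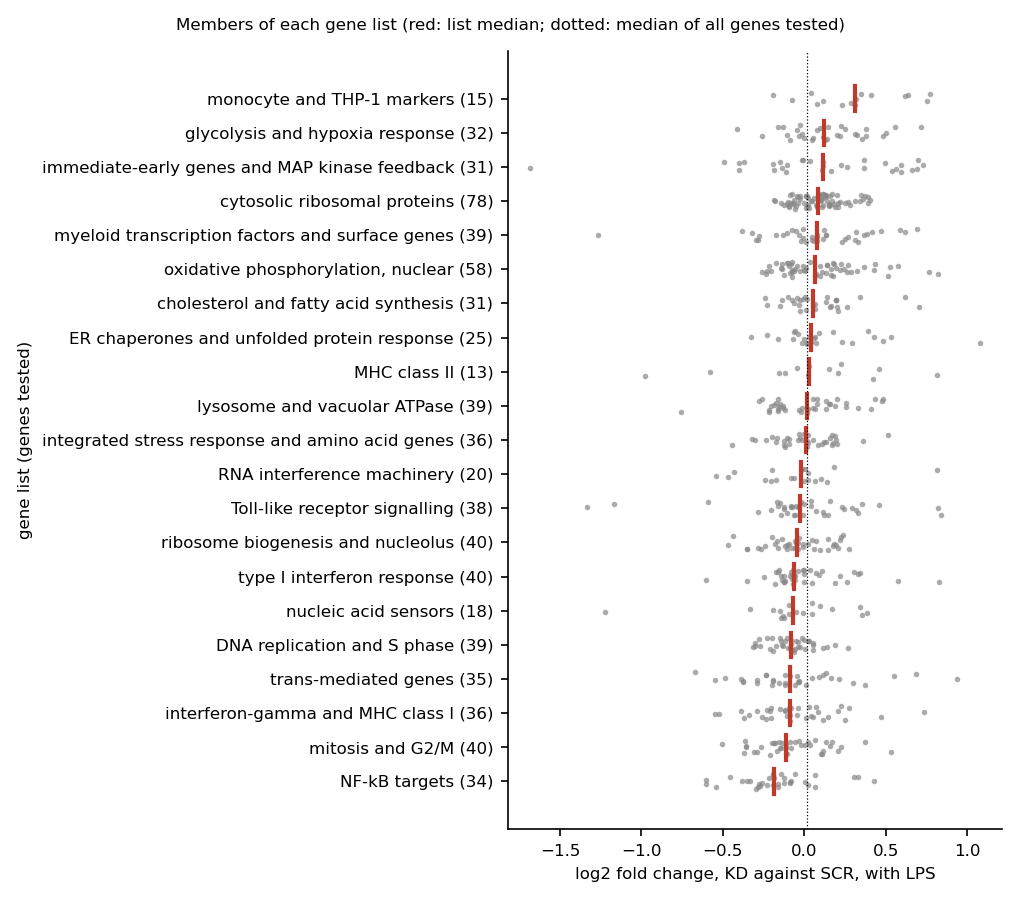
Log2 fold change of KD over SCR with LPS (horizontal axis) for the tested members of each gene list (rows, number of genes in brackets); points are genes, red lines list medians and the dotted line the median of all genes tested, 0.016. The medians run from -0.19 for NF-kB targets to 0.31 for monocyte and THP-1 markers, and in each list the members spread across both signs.

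The RNA interference machinery was looked at because both arms received an siRNA. Of 20 tested, 1 (5%) was higher and 3 (15%) were lower at an unadjusted p under 0.05, beside 5.82% and 5.95% of all genes. DICER1, the nuclease that makes small RNAs, gave 23.4, 32.5 and 28.3 CPM in KD and 43.4, 41.4 and 38.3 CPM in SCR, a log2 fold change of -0.54 (SE 0.17, adjusted p = 0.217 by edgeR). DGCR8, the partner of DROSHA, differed by -0.43 and TNRC6C, which recruits silencing factors to Argonaute, by 0.82.

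Matches to the guide's seed were also counted, since a guide can lower transcripts that pair with its seed in their 3′ untranslated regions (UTRs). The seed match TTAACAA, searched on the transcript strand only, stood at least once in the UTR of 2166 of 12428 genes with a UTR, or 17.4%. The median log2 fold change was 0.020 for the 10262 genes without a match, 0.0089 for the 1678 with 1 and 0.013 for the 488 with 2 or more. The share of negative fold changes was 47.2%, 48.7% and 48.0%. Among genes with UTRs longer than 2359 bases the share was 49.3% without and 49.5% with a match. For UTRs over 869 and up to 2359 bases it was 48.6% without and 48.1% with a match. For shorter UTRs it was 44.6% without and 39.6% with a match. Of the 20 protein-coding genes named above, 10 per direction, 19 had a UTR and 0 of these held the match, and TRAFD1's own UTR held none. Among the genes named for the contrast without LPS, POU2F2 held 1 match in its UTR, and ITGB2 and ZDHHC7 held none.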

How the data were processed

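RNA was read with a 3′ end kit (QuantSeq), per the study's methods. The authors removed low-quality, adaptor and poly-A reads, aligned with HISAT to GRCh37 and counted with featureCounts on Ensembl gene models limited to 500 bases per gene. The strand setting is not given in the sources used here. The deposited values are raw counts per gene and library, for 63677 genes. Here 16678 genes passed edgeR's filterByExpr and were fitted over all 18 libraries, with a mean per group, by edgeR 4.0.16's quasi-likelihood test (TMM scaling, R 4.3.3) and Benjamini-Hochberg adjustment over those genes. CPM are TMM-scaled. The SE is the absolute log2 fold change over the square root of F. DESeq2 1.42.0 and limma 3.58.1 were alternatives. The scripts were tested on simulated data. Named were TRAFD1, every gene past 0.05, the 10 protein-coding genes per direction with the smallest p and no overlap, 3 per list by p, and 5 per direction from the fit with a replicate block. The members and lists were chosen with earlier results of these data known.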

Additional observations from a re-analysis of the deposited data

How the results depend on the processing

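With LPS, the count of genes past an adjusted p of 0.05, 0 by edgeR as reported, became 161 (79 higher, 82 lower) when only the 6 libraries were fitted and 425 (282 higher, 143 lower) with no filter on low counts. It became 142 with DESeq2 on all libraries, 619 with DESeq2 on the 6, 10 with limma voom and 12 with a GC correction. It remained 0 with a mean of 1 CPM or more, RLE or upper-quartile scaling, pseudogenes left out, and in all 6 fits that left out 1 library (range 0 to 0). With both replicates numbered 4 left out, an alternative chosen after seeing the data, it was 1. Without LPS the count of 11 became 320 with no filter, 242 with DESeq2, 75 with limma voom, 53 with a GC correction and 4 without pseudogenes. The difference between states became 132 with no filter and 3 with DESeq2. TRAFD1 with LPS passed the threshold with no filter (log2 fold change -0.66, adjusted p = 0.0275 by edgeR) and with DESeq2 on the 6 libraries (-0.65, adjusted p = 0.0167). DESeq2 on all libraries gave TRAFD1 no adjusted p. Leaving out 1 library gave -0.77 to -0.48. The cause of these shifts was not tested. All 82 named genes kept their direction in every alternative that gave them a value. In 76 of them the KD and SCR libraries did not overlap, and all but TRAFD1 were picked by p in these data. Their direction could thus hardly turn, and this is no sign of robustness.

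Deviations of KD and SCR libraries with LPS and the same replicate number correlated at -0.087, 0.090 and 0.068 across genes. Not every library correlated best with its own number. So few values, without the WT libraries, cannot decide whether the numbers mark a shared structure, and the labels do not say. With the replicate block the count with LPS was 85 (50 higher, 35 lower), 661 in the 6 libraries alone (416 higher, 245 lower) and 142 with a GC correction added. Without LPS it was 183 with the block and 258 with the GC correction added. With the block in the 6 libraries TRAFD1 stood at -0.65 (adjusted p = 0.0293 by edgeR). Of the 85 genes, 52 were among the 142 that DESeq2 called on all libraries. Depth limits genes near the floor, such as LY96, and 3 libraries against 3 cannot give an exact permutation p below 0.1.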
